A study of Rattus norvegicus with 4 samples.

Results

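Lysosomes break down what a macrophage takes up, and 49 genes of their acidification, their enzymes, their membrane and its regulators were examined in rat macrophages that had been given carbon black particles. The genes were taken by name: 19 subunits of the vacuolar proton pump (V-ATPase), 21 hydrolases, cofactors and other luminal proteins, 6 membrane proteins and 3 transcription factors. By RefSeq accession 48 of the 49 had a probe on the array, among 16581 named genes in all, and no probe was matched to Gla, the gene of alpha-galactosidase A. The cells were NR8383, an established line of alveolar macrophages from rat lung lavage, labelled as 20 passages old. They had been exposed for 4 h to Printex90, a commercial carbon black, at 0.9 cm2/cm2, with ALI, usually short for air-liquid interface, as a further label. The study has 1 group here, with 4 arrays from 4 biological replicates. The untreated cells that the series design names were not analysed here, and the values below are levels in exposed cells with nothing to compare them with.

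The V-ATPase is a rotary pump that spends ATP to move protons into the lysosome. Its cytosolic V1 sector holds the ATP-splitting A and B subunits and the stalk subunits, and its membrane V0 sector holds the proton-conducting ring. Several subunits exist as isoforms from separate genes, some made in nearly every cell and others mainly in kidney, testis, brain or bone-resorbing cells. The acid that the pump supplies keeps the hydrolases active, and TFEB, TFE3 and MITF are related transcription factors that switch on many of these genes through an E-box known as the CLEAR element. Alveolar macrophages rely on this system to deal with inhaled material, but carbon black itself is not digested by it.

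The CLEAR-type motif was looked for because it is known from lysosome genes such as these. A higher share among them was thus foreseeable and is not an independent result. Whether the genes are regulated together was not tested. RefSeq promoter sequences of the GRCr8 build, 250 bases before to 50 after the annotated gene start, were at hand for 39 of the 49 genes. The entries missing are Arsb, Asah1, Atp6v0d2, Atp6v0e2, Atp6v1b2, Atp6v1c1, Atp6v1h, Hexa, Ppt1 and Psap. The 9-base motif TCACGTGAC, on either strand, stood in 6 of the 39 promoters (15.4%), compared with 207 of 33469 RefSeq promoters of the same length (0.618%). Among promoters of all genes detected on all 4 arrays the share was 109 of 7458 (1.46%). Among 80 promoters of further lysosome pathway genes it was 5 (6.25%), in Galc, Gnptg, Igf2r, Sumf1 and Vma21. The windows below show these 6 genes, with 25 bases on either side of the motif as far as the gene start, or 30 bases in all where the match lies beyond it. Capitals mark the motif, which reads GTCACGTGA where it lies on the strand opposite to the gene.

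Atp6v0d1, chr19:50357269-50357327, minus strand: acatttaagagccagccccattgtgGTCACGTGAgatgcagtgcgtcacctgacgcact
Atp6v0e1, chr10:17007115-17007144, minus strand: tcgcgcgccgGTCACGTGAgcctctgttga
Cln3, chr1:190597936-190597994, minus strand: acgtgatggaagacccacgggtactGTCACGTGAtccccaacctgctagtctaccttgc
Ifi30, chr16:18709524-18709569, plus strand: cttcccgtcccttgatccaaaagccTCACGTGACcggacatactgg
Lamp1, chr16:83075069-83075154, minus strand: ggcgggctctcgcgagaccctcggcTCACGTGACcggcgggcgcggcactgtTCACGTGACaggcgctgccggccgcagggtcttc
Mcoln1, chr12:6358258-6358287, plus strand: cgcTCACGTGACcgcggcgcatgtcagctg

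Counted from the annotated start, with -1 as the last base before it, the matches in Atp6v0d1, Cln3 and Ifi30 began at -54, -40 and -21. Lamp1 held 2 matches, beginning at -66 and -39, and 5 copies of the shorter core CACGTG stood in its whole promoter sequence. In Mcoln1 and Atp6v0e1 the match lay just past the start, at 4 to 12 and at 23 to 31. All 6 genes were detected on all 4 arrays. The core CACGTG, which lies within the longer motif, was present in 8 of the 39 promoters (20.5%), with Gaa and Glb1 as the additional genes. It was in 6.42% of all promoters and in 9.39% of those of genes detected on all 4 arrays. The 10-base CLEAR palindrome, which adds a G before the 9-base motif, was in none of the 39 and in 3 of the 80 pathway promoters (3.75%). It was in 0.233% of all promoters and in 0.51% of those of genes detected on all 4 arrays. A related motif that MITF also binds, TCATGTGA on either strand, was found in Atp6v0c, Atp6v1a, Galns and Tpp1, that is in 10.3% of these promoters and in 1.16% of all. Galns is the one of these 10 genes with a 9- or 8-base match that was not detected on any array. A match describes letters in a window, and binding was not measured.

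**Figure D1:**
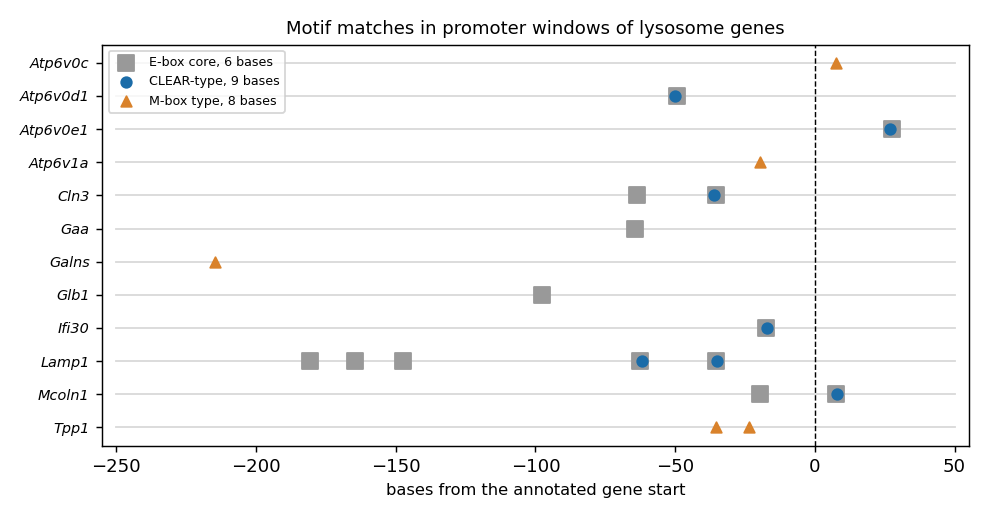
Positions of motif matches, in bases from the annotated gene start (horizontal axis, dashed line at the start), in the promoter windows of the 12 lysosome genes with any match; grey squares are the 6-base E-box core, blue circles the 9-base CLEAR-type motif and orange triangles the 8-base M-box type. All blue circles lie between -66 and 31, and Lamp1 carries 5 copies of the core.

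Probe signal is given as a level, the log2 intensity relative to the 75th percentile of the probes on the same array, so that 0 lies at that percentile. Detection on an array means that the scanner software marked at least 1 probe of the gene as well above background. The 75th percentile was an intensity of 83.8 to 127, between 8917 and 9985 named genes were detected per array, and no spot was saturated. Probes without detection had median levels between -5.32 and -4.83. All 4 arrays shared 1 slide and 1 scan. Levels of different probes are not ranked against each other, since probes differ in how well they bind. Of the measured macrophage markers, such as Cd68 and Csf1r, 11 of 11 were detected on all 4 arrays. For other cell types, 1 of 8 epithelial (Foxj1), 1 of 6 fibroblast (Dcn) and 1 of 5 lymphocyte markers (Cd3d) were detected throughout. So were 3 of 6 endothelial markers (Pecam1, Cdh5 and Vwf), beside 50.8% of all named genes. Vwf had a mean level of 4.78. Of 8 markers of renal and neural cells, in which restricted V-ATPase isoforms are found, 1 was detected on all 4 arrays, the water channel gene Aqp2. Their part in the lysosome signal was not tested.

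Nearly the whole system had a signal. Of the 48 genes with a probe, 41 were detected on all 4 arrays (85.4%), while 50.8% of all named genes were. A single gene, Tfeb, was detected on 3 arrays, which makes 42 genes on at least 3 arrays beside 54.0% of all named genes. Its only spot on replicate 4 was left out because the scanner software marked it as an outlier. With such spots kept Tfeb was detected on all 4 arrays. That made 42 genes on all 4 arrays, beside 51.3% of all named genes. Another 6 were detected on none, beside 36.9% of all: Atp6v1b1, Atp6v1c2, Atp6v1e2, Atp6v1g2, Galns and Arsb. The 4 V-ATPase genes among these 6 are all isoforms with a restricted tissue range. Asking for every probe of a gene to be detected left 39 of the 48, beside 45.0% of all, and dropped Atp6v0a2 and Tfe3.

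**Figure D2:**
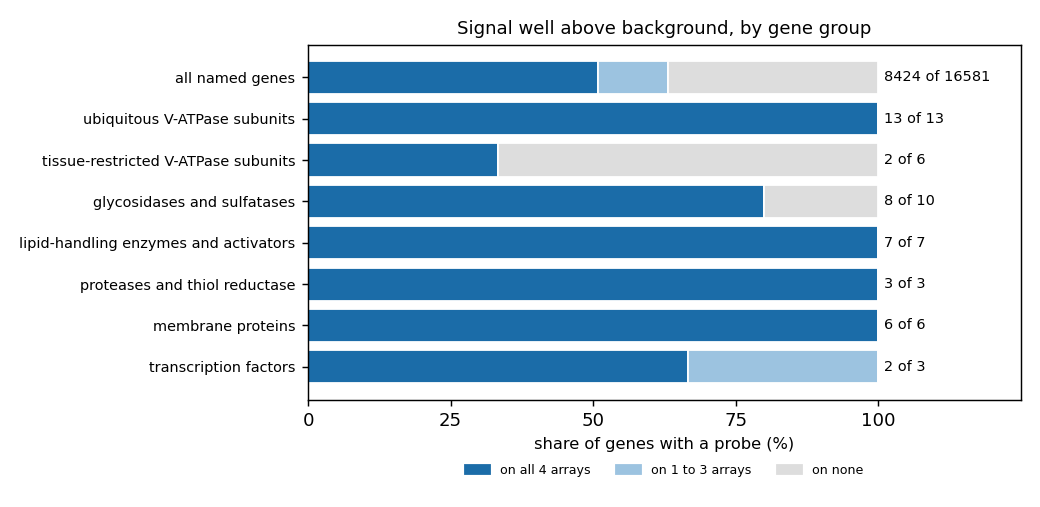
Share of genes with a probe (horizontal axis, %) whose signal was well above background on all 4 arrays (dark blue), on 1 to 3 arrays (light blue) or on none (grey), for each gene group and for all named genes; the numbers give the genes detected on all 4. All 13 ubiquitous V-ATPase subunits were detected and 2 of the 6 tissue-restricted ones, against 8424 of 16581 named genes.

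Ubiquitous and tissue-restricted V-ATPase isoforms separated by detection. All 13 ubiquitous subunits were detected on all 4 arrays, and 2 of the 6 tissue-restricted ones were, namely Atp6v0d2 and Atp6v0e2. For the B, C, E and G subunits of V1, the ubiquitous isoform (Atp6v1b2, Atp6v1c1, Atp6v1e1 and Atp6v1g1) was detected on every array and the restricted one (Atp6v1b1, Atp6v1c2, Atp6v1e2 and Atp6v1g2) on none. For the d and e subunits of V0, both isoforms were detected on every array. The classes were set from textbook tissue patterns with results of these data known, and the counts carry no test. Atp6v1b1, Atp6v1c2 and Atp6v1g2 were each represented by 1 probe. For these genes an insensitive probe and a low transcript cannot be told apart.

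In the V1 sector, the catalytic A subunit gene Atp6v1a read 5.62, 5.71, 5.61 and 5.62 on replicates 1 to 4. These values lie within 0.10 of each other, which gives one of the smallest spreads of the group (SD 0.05, n = 4). A second Atp6v1a probe was also detected on every array, with a mean of 0.25 ± 0.26 (SD, n = 4). Atp6v1b2, the B subunit of most cells, had levels of 6.69, 6.68, 6.94 and 6.78. Its kidney and epididymis counterpart Atp6v1b1 was measured at -3.41, -4.79, -4.92 and -4.66, never well above background, with replicate 1 above the other 3.

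The stalk subunits showed the same division. Atp6v1c1, a clamp between the sectors that is released when the pump is switched off, read 4.64, 4.54, 4.38 and 4.47. Atp6v1c2, its counterpart with a narrower tissue range, lay between -5.31 and -4.82, at the level of undetected probes. Atp6v1e1, a peripheral stalk subunit, had levels of 2.50, 2.45, 2.61 and 2.07, so that replicate 4 was lowest. The testis isoform Atp6v1e2 lay between -5.18 and -3.62 by its brighter probe, and neither of its probes was detected on any array. Atp6v1g1, the partner of the E subunit, read 6.05, 5.95, 6.24 and 5.85, whereas the neural isoform Atp6v1g2 lay between -5.36 and -4.35.

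Atp6v1f, part of the central shaft, read 5.41, 5.50, 5.70 and 5.25, with replicate 3 highest. Atp6v1h, a regulatory subunit that links the sectors, read 4.65, 3.80, 4.48 and 4.05 by its brighter probe, an SD of 0.39. Its other probe read 4.10, 4.02, 4.08 and 4.03, and there the SD was 0.04. The wide spread of Atp6v1h was thus seen on 1 of its 2 probes. The spots of both probes lay in a bright region of replicate 3, a block of 16 rows and 8 columns where more than 10% of spots of probes with no gene name exceeded all other arrays by at least 1 on the log2 scale. When a block that was bright on 1 array was left out on all 4, no spot remained for 5 genes: Atp6v1h, Hexa and Npc1 (bright on replicate 3), Atp6v1e1 (replicate 2) and Atp6v0e2 (replicate 1).

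In the membrane sector, the proton-carrying ring subunit gene Atp6v0c read 6.95, 6.90, 7.07 and 6.83, and the related ring subunit gene Atp6v0b 6.03, 5.88, 6.08 and 5.87. Both had replicate 3 highest and replicate 4 lowest, within a range of at most 0.24. A second Atp6v0c probe gave a mean of 6.03 ± 0.29 (SD, n = 4). Atp6v0e1, a small membrane subunit, read 6.17, 6.10, 6.41 and 6.23. Its brain-enriched isoform Atp6v0e2 was detected on all arrays at -1.13, -1.51, -1.34 and -0.90, a mean of -1.22 ± 0.26 (SD, n = 4).

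The a subunit anchors the pump in a given membrane. Atp6v0a1, found on many organelles and abundant in neurons, read 3.76, 3.88, 4.03 and 3.85. Atp6v0a2, best known from the Golgi and endosomes, read -0.02, 0.17, 0.10 and 0.03 by one probe, while its other probe was detected on 2 arrays with a mean of -3.60 ± 1.06 (SD, n = 4). The a3 isoform of lysosomes in macrophages and osteoclasts is encoded by Tcirg1, which is not one of the 49 genes. It was detected on every array at 6.93, 6.71, 7.03 and 6.99.

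The d subunits couple the ring to the shaft, and here the restricted isoform had a clear signal. Atp6v0d1, the common isoform, read 5.07, 5.03, 5.16 and 5.13. Atp6v0d2, known from osteoclasts, macrophages and kidney, read 4.19, 4.15, 4.08 and 3.82, a mean of 4.06 ± 0.17 (SD, n = 4). Every array of Atp6v0d2 stood far above the level of undetected probes. Among the osteoclast markers on the array, Acp5, Calcr and Nfatc1 were detected on all 4 arrays and Ctsk, the cathepsin of osteoclasts, on none. The part of such a programme in the Atp6v0d2 signal was not tested.

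**Figure D3:**
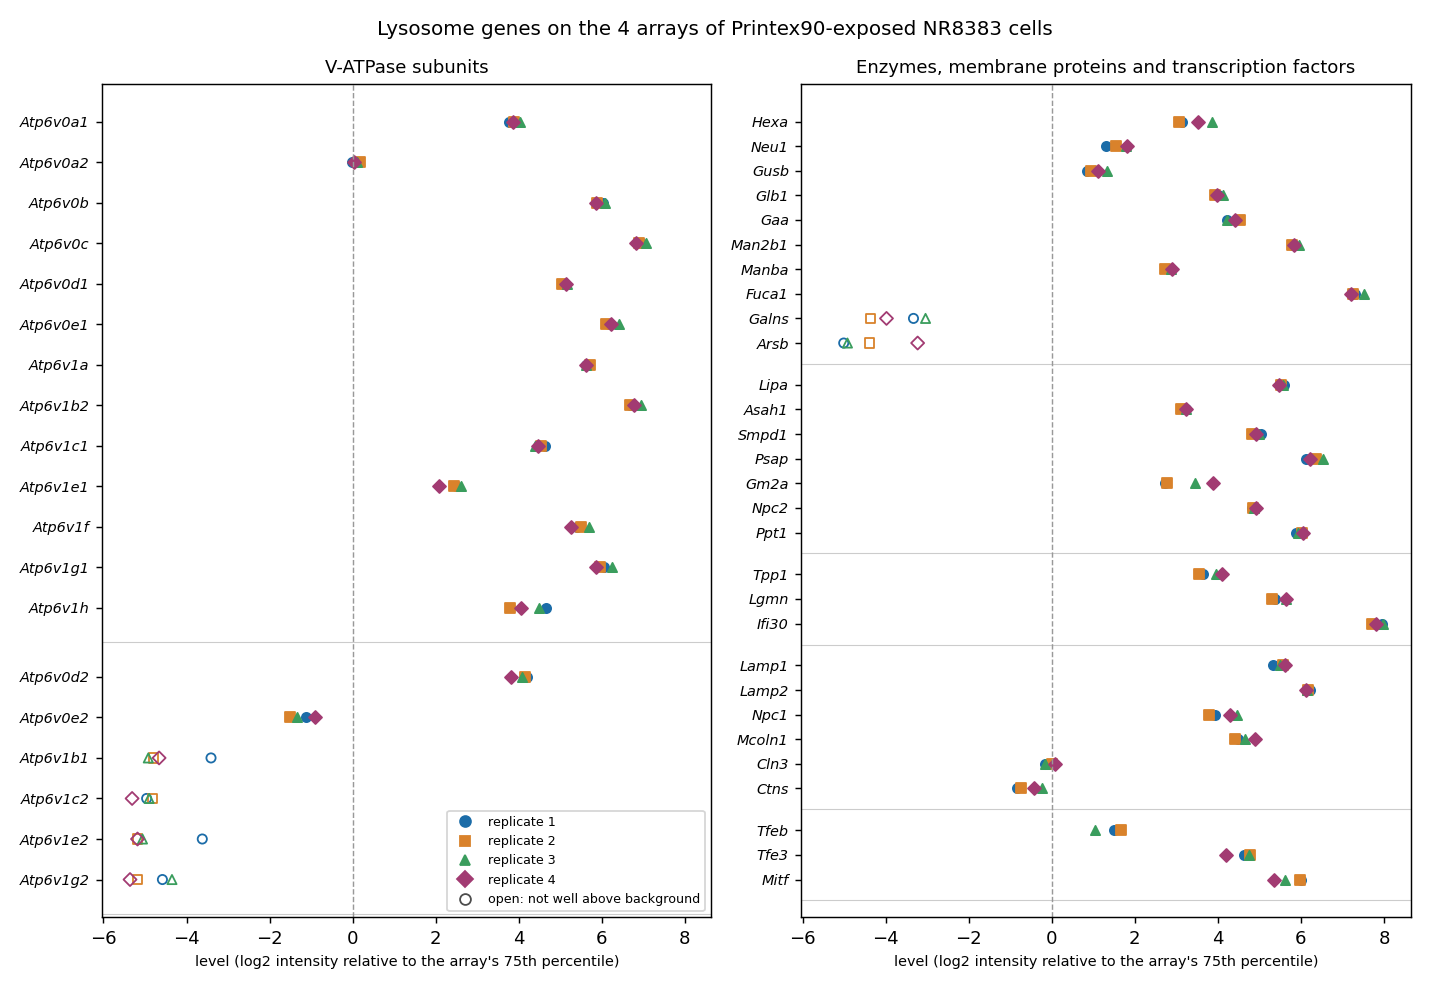
Level of each gene (rows) on each of the 4 arrays (symbols, replicates 1 to 4), as log2 intensity relative to the array's 75th percentile (dashed line at 0), from the probe with the highest mean; filled symbols were well above background and open symbols were not. Grey lines separate the gene groups, with ubiquitous above tissue-restricted V-ATPase subunits on the left; Tfeb is shown on the 3 arrays with a usable spot, and the 6 undetected genes lie between -5.36 and -3.04.

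Glycosidases and sulfatases take sugars and sulfate groups off glycoproteins, glycolipids and glycosaminoglycans, and 8 of the 10 with a probe were detected on all 4 arrays. Fuca1, which removes fucose, read 7.29, 7.25, 7.52 and 7.20. Man2b1, the lysosomal alpha-mannosidase, read 5.78, 5.79, 5.94 and 5.83. Both probes were printed 10 times per array, and the SD of the spots within an array was 0.137 for Fuca1 and 0.069 for Man2b1. The SD between the array means, each over 9 to 10 usable spots, was 0.142 and 0.072. A mean of spots varies less than a single spot, so these SDs are not directly comparable with those of the spots.

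Glb1, the beta-galactosidase behind the senescence stain, read 4.00, 3.94, 4.13 and 3.98. Gaa, which degrades glycogen, read 4.21, 4.52, 4.23 and 4.40, and Manba, the beta-mannosidase, 2.88, 2.73, 2.88 and 2.89. These 3 genes had ranges of at most 0.31. Neu1, a sialidase, read 1.31, 1.55, 1.79 and 1.82. Gusb, the beta-glucuronidase, read 0.84, 0.94, 1.33 and 1.12, and replicates 1 and 2 were the lower arrays for both Neu1 and Gusb.

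Both sulfatases were below the detection limit. Galns, which removes sulfate from keratan sulfate and chondroitin sulfate, was measured at -3.33, -4.37, -3.04 and -3.98. Arsb, which acts on dermatan sulfate and chondroitin sulfate, lay at -5.01, -4.38, -4.92 and -3.23. Neither was well above background on any array, though Galns passed the scanner software's less strict flag, positive and significant, on all 4. By that flag 42 of the 48 genes were detected, beside 61.7% of all named genes. Each was represented by 1 probe, so an insensitive probe and a low transcript cannot be told apart.

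Hexa and Gm2a act on the same lipid. Hexa encodes the alpha subunit of hexosaminidase A, and Gm2a the activator that presents GM2 ganglioside to it. Gm2a read 2.73, 2.77, 3.44 and 3.88, with the largest SD of the 41 genes (0.55, n = 4) and a 2.22-fold difference between its highest and lowest array. It was the only one with an SD above 0.5, a value that 2.43% of all detected genes exceeded. Hexa read 3.13, 3.07, 3.85 and 3.52 (SD 0.36, n = 4), and its spot lay in the bright region of replicate 3, the array on which it was highest. The spot of Gm2a lay in no such region.

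All 7 lipid-handling genes were detected. Lipa, the acid lipase that frees cholesterol and fatty acids, read 5.60, 5.51, 5.56 and 5.48. Npc2, which carries cholesterol within the lumen, read 4.83, 4.84, 4.87 and 4.92, the smallest SD of the group at 0.04. Smpd1, the acid sphingomyelinase, read 5.04, 4.82, 4.99 and 4.92, and Asah1, the acid ceramidase, 3.23, 3.10, 3.22 and 3.22. Both sphingolipid enzymes were lowest on replicate 2. Psap, the precursor of the saposin activators, read 6.13, 6.35, 6.52 and 6.21. Ppt1, which removes palmitate from proteins, read 5.87, 6.02, 5.93 and 6.06.

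The 3 genes of protein breakdown were detected throughout. Ifi30 encodes GILT, an interferon-inducible thiol reductase that opens disulfide bonds before antigens are cut. It read 7.96, 7.72, 7.97 and 7.81, and its probe was printed 10 times per array. The SD was 0.110 for single spots within an array and 0.119 for the array means. Lgmn, an asparaginyl endopeptidase, read 5.37, 5.31, 5.65 and 5.65. Tpp1, a tripeptidyl peptidase, read 3.63, 3.55, 3.95 and 4.09. Replicate 2 was the lowest array for each of the 3.

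All 6 membrane proteins were detected on all 4 arrays. Lamp1 and Lamp2 encode the sugar-coated proteins that line the lysosomal membrane. Lamp1 read 5.32, 5.57, 5.50 and 5.61. Lamp2 read 6.22, 6.18, 6.15 and 6.11 by one probe and had a mean of 2.81 ± 0.18 (SD, n = 4) by another, both detected on every array. Npc1, the cholesterol transporter that works with Npc2, read 3.94, 3.79, 4.47 and 4.28, with its spot in the bright region of replicate 3. Mcoln1, the calcium-releasing channel TRPML1, read 4.49, 4.40, 4.65 and 4.89.

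Cln3 and Ctns are known from lysosomal storage diseases. Cln3, a membrane protein lost in juvenile neuronal ceroid lipofuscinosis, read -0.17, 0.01, -0.17 and 0.08. Ctns, the cystine exporter, read -0.83, -0.74, -0.23 and -0.42. Both were well above background on all 4 arrays.

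The transcription factors differed in how fully they were measured. Mitf read 6.01, 5.98, 5.61 and 5.35 by its brighter probe and 4.35, 4.39, 4.09 and 4.12 by the other, and on both probes replicates 1 and 2 were above replicates 3 and 4. Tfe3 read 4.63, 4.78, 4.75 and 4.20 by one probe, while its second probe was detected on no array, with a mean of -3.59 ± 0.44 (SD, n = 4). Tfeb read 1.49, 1.66 and 1.03 on the first 3 replicates. On replicate 4 the scanner software marked its only spot as an outlier, so it was left out, and with it the level there was 2.01. Tfec, the remaining member of this factor family, is not one of the 49 genes and was detected on every array at 2.55, 2.58, 2.20 and 2.11.

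The replicates lay close together. Over the 41 detected genes the median SD was 0.134 on the log2 scale, or 1.097-fold, against 0.165 over the 8424 detected named genes. In 12 of the 41 the SD was under 0.1 and in 5 above 0.3 (Gm2a, Atp6v1h, Hexa, Mitf and Npc1). The order of these medians depended on the correction: with normexp on the median signals it was 0.184 for the lysosome genes and 0.142 for all. With the array median as the reference point it was 0.42 and 0.390. Spread also fell with level over all detected genes, from a median of 0.270 below a level of -1 to 0.134 between 5 and 7. At similar levels the order of the medians varied. Between 3 and 5 the median SD was 0.167 for 15 lysosome genes and 0.139 for all. Between 5 and 7 it was 0.112 for 16 lysosome genes and 0.134 for all. Fewer lysosome genes lay between 1 and 3 (4 genes, 0.224 against 0.150) and between -1 and 1 (3 genes, 0.127 against 0.185).

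**Figure D4:**
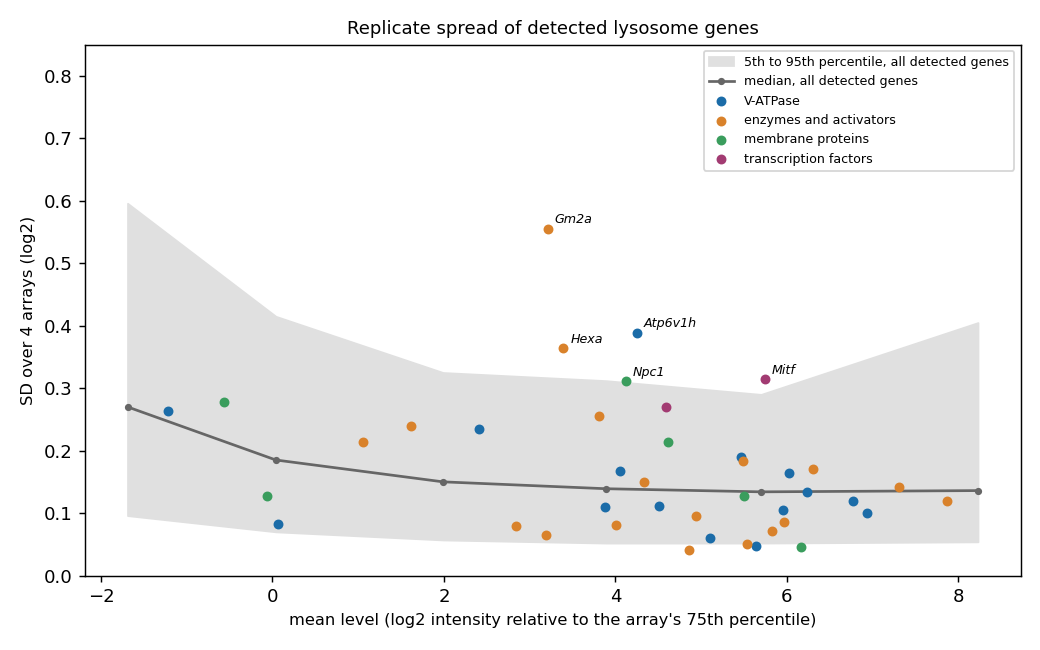
SD over the 4 arrays (vertical axis, log2) against the mean level (horizontal axis, log2 intensity relative to the array's 75th percentile) for the 41 detected lysosome genes, coloured by group; the grey line and band give the median and the 5th to 95th percentile of all 8424 detected genes in 6 bins of level. Gm2a, at an SD of 0.55, stands farthest above the band, followed by Atp6v1h and Hexa.

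Across arrays, the number of lysosome genes highest on replicate 3 depended on the scaling. With the 75th percentile this was the highest array for 19 of the 41 genes (46.3%) and for 31.5% of all detected genes. Replicate 1 was highest for 8, replicate 2 for 4 and replicate 4 for 10, beside 31.0%, 17.6% and 20.0% of all. Conversely, replicate 3 was the lowest array for 2 of the 41 genes, Atp6v1a and Atp6v1c1, beside 22.5% of all. Replicates 1, 2 and 4 were lowest for 13, 15 and 11, beside 20.9%, 26.7% and 29.8%. A bright region touched the level probe of 8 of the 41 genes on any array and of 4 on replicate 3, beside 11.2% and 4.32% of all detected genes. The V-ATPase genes were highest there in 9 of 15 cases. As a median, the 41 genes stood 0.114 above their own 4-array mean on replicate 3, where all detected genes stood at 0.030, and at -0.037, -0.068 and 0 on replicates 1, 2 and 4. The median of 0.114 became 0.033 with quantile normalization, 0.048 with normexp and 0.545 with the array median, where all detected genes stood at 0.001, 0.004 and 0.46. In the 33 genes with no spot in a bright region it was 0.066, and 13 of these were highest on replicate 3. For these 33 no matching value over all genes is given. When bright regions were instead left out on all 4 arrays, the median rose to 0.144, where all detected genes stood at 0.071. Of the 36 lysosome genes then left, 23 were highest on replicate 3, and the share of all detected genes was also above 31.5%. With normexp the count highest on replicate 3 fell from 19 to 10 of 41, beside 21.7% of all detected genes. With the array median it was 40 of 41 beside 85.3%. By their brighter probes, neither of the 2 transcription factors detected throughout was highest on replicate 3, and both were lowest on replicate 4. The second Mitf probe was lowest on replicate 3, at 4.09 beside 4.12 on replicate 4. So was the second Tfe3 probe, which was detected on no array.

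**Figure D5:**
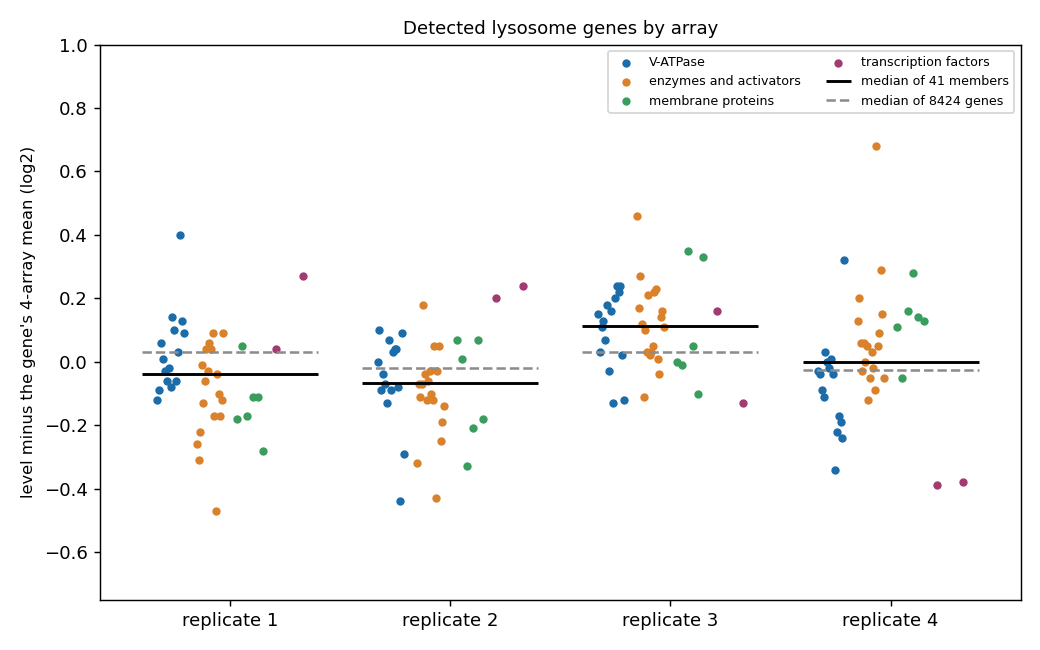
Level minus the gene's own 4-array mean (vertical axis, log2) on each replicate for the 41 detected lysosome genes, coloured by group; black lines are the medians of the 41 genes and dashed grey lines those of all 8424 detected genes. On replicate 3 the black line lies at 0.114 and the grey one at 0.030, and on replicate 4 Gm2a lies highest, at 0.68.

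Most further genes of the pathway were detected too. Of 94 other genes for V-ATPase parts, lysosomal enzymes, membrane proteins, regulators and enzyme sorting, 81 had a probe, and 73 of these (90.1%) were detected on all 4 arrays, beside 50.8% of all named genes. The regulators, which include the mTOR and Rag GTPase genes, were detected in 17 of 17 cases, and the genes that tag and sort enzymes through mannose 6-phosphate in 7 of 7. Other membrane proteins were detected in 21 of 22 cases, Lamp3 being the exception, and other enzymes in 21 of 23, the exceptions being Galc and Hyal1. Of the 5 pathway genes whose promoter holds the 9-base motif, Gnptg, Igf2r and Sumf1 were detected on all 4 arrays, Galc, the galactosylceramidase gene, on none, and no probe was matched to Vma21.

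Of the other V-ATPase subunits and accessory proteins with a probe, 7 of 12 (58.3%) were detected on all 4 arrays, beside 50.8% of all named genes. Atp6v1g3, a kidney isoform, was detected on no array. The ubiquitous subunit gene Atp6v1d and the assembly factor gene Dmxl2 were detected on 3 arrays, Wdr7 on 2 and Tmem9 on 1. For Atp6v1d and Wdr7 the spot on replicate 4 had been left out. Median SDs over the detected members were 0.134 for these 73 genes, as for the 41.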

How the data were processed

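Total RNA of 4 cultures was labelled with Cy3 and hybridised to 1-colour Agilent rat arrays, 1 array per replicate. The deposited values are linear spot intensities that, per the file headers, Feature Extraction 11.0.1.1 wrote after subtracting background and a spatial trend, with no scaling between arrays. Other deposited columns are flags of 0 or 1 for each spot. Per the file headers the array grid refers to the rn4 build. Probes were named by RefSeq accession without version through the GRCr8 gene table, which named 21109 of 45598 probes.

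Non-control spots marked as non-uniform or population outliers were left out, 750 to 1551 per array. Log2 values were taken of the deposited processed signals, repeat spots were averaged, and each array was shifted to put the 75th percentile of its non-control probes at 0. A gene's level is that of its probe with the highest mean among those measured on all 4 arrays. Genes and lists were chosen with earlier results of these data known. Each of the 49 genes is named, with array values for those detected on all 4 arrays, and of the pathway lists those not detected throughout are named. The design holds 1 group, so no test was run, and the number of arrays limits the precision. Level, spread and bright-region steps were tested on simulated data. The alternatives were another detection flag, 3 of 4 arrays, every probe detected, outlier spots kept, bright regions left out, other scalings, probes averaged per gene, undetected genes kept and each replicate omitted in turn. Normexp with an offset of 50 was planned on mean signals, which the files used here do not hold, and was run on median signals, a choice made after seeing the data. Software was Python 3.11.15 with numpy 2.4.6, pandas 2.3.3 and matplotlib 3.10.9, and R 4.3.3 with limma 3.58.1.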

Additional observations from a re-analysis of the deposited data

Results flagged for a closer look

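In 5 of the genes, 1 array stood apart from the other 3 by Dixon's criterion for a large gap relative to the whole range, which chance meets in about 5% of groups. Of the 41 detected genes 3 met it (7.32%), as did 5.35% of all detected genes. Atp6v1a read 5.71 on replicate 2 and 5.61 to 5.62 on the others. Manba read 2.73 on replicate 2 against 2.88 to 2.89, and Asah1 read 3.10 on replicate 2 against 3.22 to 3.23. Each of these gaps was smaller than the median SD of the detected genes over the whole array, 0.165. Atp6v1b1 read -3.41 on replicate 1 against -4.92 to -4.66, and Atp6v1e2 read -3.62 on replicate 1 against -5.18 to -5.06. Neither was well above background on any array. Neighbouring spots of Atp6v1b1 and Atp6v1e2 differed on replicate 1 from the other arrays by a median of 0.02 and -0.23.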

How the results depend on the processing

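The count of detected genes was 41 and lay between 36 and 42 over the alternatives, beside 45.0% to 61.7% of all named genes. Ubiquitous V-ATPase subunits gave 11 to 13. The 11 came with bright regions left out, since Atp6v1e1 and Atp6v1h then have no spot. Tissue-restricted ones gave 2 throughout, except 1 with bright regions left out, since Atp6v0e2 then has no spot. The median SD of 0.134 was 0.42 with the array median, and without single replicates it ranged from 0.111 to 0.148. The median level of the detected genes was 4.61. It became 8.18 with the array median, 1.2 with the 75th percentile over detected probes, 3.89 with normexp and 5.01 with bright regions left out (36 genes), and 4.59 to 4.68 without single replicates. The number highest on replicate 3 was 19, 40 with the array median, 10 with normexp and 23 of 36 with bright regions left out. The share of all detected genes moved in the same direction, from 31.5% to 85.3% with the array median and 21.7% with normexp. With bright regions left out that share was above 31.5% as well, so the rise was not particular to the lysosome genes. The array median and the percentile over detected probes put the zero at another intensity. With either of them single levels moved beyond their SD for 41 genes, which follows from the new zero. The array median, an intensity of 6.29 to 12.8, was lowest on replicate 3. Single levels moved for 39 genes with normexp. With the mean of all probes 6 moved, namely Atp6v0a2, Atp6v0c, Atp6v1a, Lamp2, Tfe3 and Mitf. None moved with quantile normalization, outlier spots kept or a replicate left out. No paired analysis was possible because there is 1 group. Low signal limits the 6 undetected genes, whose order has no meaning.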
